A study of Mus musculus with 9 samples.

Results

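Gene expression was compared between LeuA and wild-type (WT) cells that had been sorted from mouse bone marrow as granulocyte-monocyte progenitors (GMPs). The comparison holds 3 LeuA and 3 WT arrays of the 9 in the study, and all 21872 genes that the array table names were tested. The LeuA cells came from C57BL/6 secondary recipients, 1 month after a graft of spleen cells of a moribund leukaemic mouse that was Tet2-/- and carried AE, the fusion of AML1 (Runx1) with ETO (Runx1t1). The WT cells came from C57BL/6 recipients 1 month after a graft of WT bone marrow. All groups share the strain background, the transplantation, the tissue sorted and the gate, which took cells negative for lineage markers and Sca1, positive for Kit and CD16/32, and negative for CD150. The 3 arrays of LeuB, which hold cells of the same gate from recipients of a second, independent Tet2-/- AE leukaemia, served to test where LeuA departed from it. Several limits come with this design. All LeuA arrays trace back to 1 primary leukaemic mouse, so p-values do not cover the spread among primary leukaemias. They rest on the spread among arrays within LeuA, WT and LeuB, pooled over these groups. Donor spleen stands against donor marrow, and the labels do not give the age of the animals, how AE was expressed, or whether recipients were pooled for an array. The WT arrays lay in the upper row and the LeuA arrays in the lower row of 1 slide, so row and group cannot be told apart.

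GMPs are the progenitors that produce neutrophils and monocytes, and they normally prepare for this by making granule enzymes, receptors for inflammatory cytokines and the enzymes of the oxidative burst. AML1-ETO is a fusion transcription factor of acute myeloid leukaemia that binds at RUNX sites and recruits corepressors. TET2 oxidises methylated cytosine in DNA and is often lost in myeloid neoplasms. Progenitors also carry transporters, metabolic enzymes and surface receptors that differ between blood lineages: erythroid cells import glycine and iron to build haem, whereas granulocyte precursors invest in glutathione enzymes and lysosome-like granules.

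Values are log2 intensities of single Agilent probes as the authors normalized them, so levels are compared between groups for 1 gene and never between genes. Array medians lay between 7.02 and 7.04, and values near 6 or 7 are the bottom of the scale, where a fold difference can understate a change. Genes are not independent replicates, and correlations over them were 0.991 to 0.993 among LeuA arrays, 0.992 to 0.996 among WT arrays and 0.909 to 0.914 between LeuA and WT arrays. Differences are log2 LeuA minus WT from limma, calls were made below 0.05 after Benjamini-Hochberg adjustment over all genes, and "rose" and "fell" are used of called genes. Of the 298 genes described here as changed, 298 had no overlap between the 3 LeuA and the 3 WT arrays, a count that the choice of genes largely fixed, against 49.5% of all genes. Over these genes the SE of the difference ran between 0.05 and 0.58, the largest SD within a group was 1.48, and adjusted p lay between 4.64e-12 and 0.044. These were bulk RNA samples, in which fewer cells of a type and less RNA per cell cannot be told apart.

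Transcripts of the targeted gene were read in both groups. Tet2 had log2 intensities of 9.31, 9.45 and 9.38 in LeuA, against 9.29, 9.19 and 9.29 in WT, means of 9.38 ± 0.07 in LeuA and 9.26 ± 0.06 in WT (SD, n = 3 each), and a difference of 0.12 (SE 0.06, adjusted p = 0.196). Where this probe lies relative to the deleted part of Tet2 was not examined, so the value checks neither the labels nor the deletion. Of its relatives, Tet1 fell by 2.93 (7.6-fold lower) by its brightest probe, with the other at -0.36 (adjusted p = 0.666), and Tet3 gave 0.16 (SE 0.12, adjusted p = 0.378). Runx1 had log2 intensities of 12.69, 12.76 and 12.71 in LeuA, against 10.59, 10.73 and 10.70 in WT, and rose by 2.05 (4.13-fold higher, SE 0.07, adjusted p = 1.44e-08). Runx1t1 had 8.82, 8.03 and 7.74 in LeuA, against 6.03, 6.15 and 6.20 in WT, and rose by 2.07 (4.21-fold higher, SE 0.25, adjusted p = 0.000115). It was not examined whether either probe lies in a part of the gene that the fusion keeps. Fcgr3 and Fcgr2b, the CD16/32 genes that the gate requires, gave differences in one direction: Fcgr3 fell by 1.78 (3.42-fold lower), and Fcgr2b fell by 1.64 (3.12-fold lower). Slamf1, the excluded CD150, gave 0.19 (SE 0.12, adjusted p = 0.27).

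The gated LeuA cells kept Kit, but they carried far less of the transcripts that define GMPs. Kit had log2 intensities of 12.32, 12.46 and 12.51 in LeuA, against 12.54, 12.50 and 12.76 in WT, and the difference was -0.17 (SE 0.09, adjusted p = 0.209). All 11 measured granule and GMP markers fell, and the log2 of their summed intensities lay between 13.29 and 13.76 in LeuA, against 19.71 to 19.87 in WT. Erythroid markers went the other way: 11 of 13 rose, with sums of 18.83 to 19.13 in LeuA and 13.17 to 13.64 in WT. Of 12 mast cell and basophil markers 6 rose and 3 fell, with sums of 17.15 to 17.37 in LeuA and 14.92 to 15.30 in WT. The falls included proteases known from basophils, so these sums do not stand for every member. Monocyte markers summed to 9.98 to 10 in LeuA and 15.20 to 15.78 in WT (9 of 10 fell). Mature neutrophil markers summed to 11.37 to 11.57 in LeuA and 14.03 to 15.48 in WT, where 9 of 12 fell. That neutrophil count dropped to 3 without WT 2 or WT 3, to 4 without LeuA 2 and to 5 without LeuA 1 or LeuA 3. T cell and NK cell markers summed to 11.62 to 11.83 in LeuA and 11.74 to 11.89 in WT, with 0 called of 11, and 9 of them were below the median of all genes in both groups. B cell markers summed to 10.49 to 10.59 in LeuA and 12.53 to 12.64 in WT (1 of 11 rose and 4 fell), megakaryocyte markers to 12.08 to 12.27 in LeuA and 12.18 to 12.36 in WT (2 of 10 rose and 6 fell), and stem cell markers to 10.94 to 11.29 in LeuA and 12.03 to 12.20 in WT (2 of 10 rose and 4 fell). The single B cell gene that rose, Cd22 (0.53), lost its call when any 1 of LeuA 1, LeuA 2, LeuA 3, WT 1 or WT 3 was left out, and the count of megakaryocyte genes that rose was 1 without LeuA 2, WT 2 or WT 3. The name GMP is therefore used below for the gate alone, and the part that erythroid or mast-like cells within the gate play in each result was not tested.

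The difference between LeuA and WT was wide and nearly symmetric. Of all genes tested, 8049 were called (36.8%), 3907 higher (17.9%) and 4142 lower (18.9%) in LeuA, around a median log2 difference of 0.01. At least 2-fold differences were called for 2838 genes (13%), 1356 higher (6.2%) and 1482 lower (6.78%). Differences of 8-fold or more were called for 669 genes, 288 higher and 381 lower, and of 32-fold or more for 178. The 3 arrays of each group did not overlap for 10822 genes (49.5%). Calls were commoner among bright genes: of the 11762 genes whose higher group mean lay above 7.53, the median of all gene means, 6956 were called (59.1%).

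**Figure D1:**
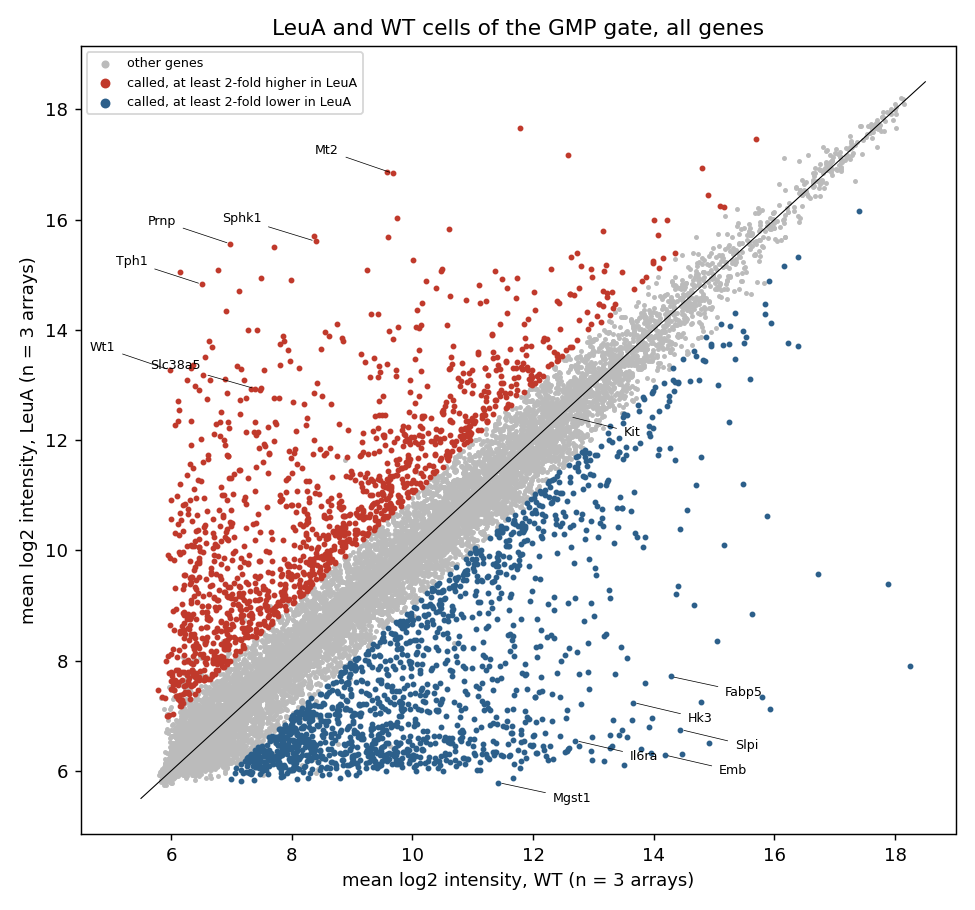
Mean log2 intensity in LeuA (vertical) against WT (horizontal) for all 21872 genes, n = 3 arrays per group. Red points are the 1356 genes called and at least 2-fold higher in LeuA, blue points the 1482 called and at least 2-fold lower, grey points the others, and the line marks equal levels. Several genes at the bottom of the WT scale stand above 13 in LeuA, and several above 13 in WT stand near 6 or 7 in LeuA.

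Apart from the lineage markers counted above, the largest rises joined a transcription factor, amine-synthesis enzymes, a metallothionein and a secreted neuropeptide precursor. Tph1, the tryptophan hydroxylase that starts serotonin synthesis, had log2 intensities of 14.90, 14.85 and 14.72 in LeuA, against 6.5, 6.53 and 6.51 in WT, and rose by 8.32 (318-fold higher, SE 0.07, adjusted p = 1.76e-11). Ddc, the decarboxylase of the next step to serotonin, rose by 8.31 (316-fold higher, SE 0.06, adjusted p = 4.64e-12). Both enzymes of that short path were thus near the bottom of the scale in WT and bright in LeuA. Mast cell and basophil marker sums were also higher in these LeuA arrays, although 3 of those 12 markers fell. The part of such cells in the rises of this paragraph was not tested. Wt1, a zinc-finger transcription factor that is also measured clinically in acute leukaemias, had 13.10, 13.36 and 13.35 in LeuA, against 5.96, 5.94 and 6.03 in WT, and rose by 7.29 (157-fold higher, SE 0.09, adjusted p = 4.98e-11). Mt2, a metallothionein that binds zinc and copper, had 16.71, 17.04 and 16.77 in LeuA, against 8.91, 10.09 and 10.05 in WT, and rose by 7.16 (143-fold higher). Prnp, the prion protein, rose by 8.58 (382-fold higher), and Tac2, the precursor of neurokinin B, rose by 7.18 (145-fold higher). Other genes among the 20 largest rises were the interferon-inducible Ifi27l2a (7.29), the homeobox gene Dbx2 (6.98), the transcriptional coactivator Cited1 (6.92), the chloride channel regulator Clca3a2 (6.84), and Olfm1 (6.94) and Crybg1 (7.01), with log2 differences in brackets.

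Secreted defence proteins and membrane partners were among the 20 largest falls. Slpi, the secretory leukocyte protease inhibitor, had log2 intensities of 6.69, 6.67 and 6.89 in LeuA, against 14.72, 14.29 and 14.32 in WT, and fell by 7.69 (207-fold lower, SE 0.24, adjusted p = 6.16e-09). Hp, which encodes haptoglobin, fell by 7.52 (184-fold lower). Emb encodes embigin, a partner that carries monocarboxylate transporters to the membrane; it had 6.30, 6.29 and 6.27 in LeuA and 14.33, 14.14 and 14.06 in WT, and fell by 7.89 (237-fold lower, SE 0.14, adjusted p = 1.94e-10). In all 3 genes the WT arrays were bright and the LeuA arrays near the bottom of the scale. Further falls of similar size were read for Wdfy4 (-7.39), a gene of antigen cross-presentation in dendritic cells, Rgcc (-7.12), a regulator of the cell cycle, the chemokine Ccl9 (-7.01), the interferon-induced membrane gene Ifitm1 (-6.87) and the immunoglobulin superfamily member Igsf6 (-6.86). Plppr3 also fell by 8.40 (337-fold lower) by its brightest probe, whereas its other probe gave -0.09 (adjusted p = 0.7).

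The promoters of 4 genes on which the next results turn are shown, chosen after the search because each holds a match to a motif of a factor named above or of a regulator of these lineages. They cover the 250 bases before the transcription start on the gene's own strand, from RefSeq (GRCm38.p6), with capitals marking matches on either strand to TGTGGT for RUNX factors, to AGATAA for factors of the GATA family, or to TTGCNNAA for C/EBP factors. Matches to different motifs do not overlap in these windows.
Tph1 (chr7:46672538-46672787, minus strand): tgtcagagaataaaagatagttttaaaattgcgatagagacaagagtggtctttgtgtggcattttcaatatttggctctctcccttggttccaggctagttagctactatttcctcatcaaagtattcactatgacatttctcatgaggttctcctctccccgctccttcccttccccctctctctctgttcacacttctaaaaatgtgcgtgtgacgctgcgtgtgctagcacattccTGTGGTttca
Fcer1a (chr1:173227230-173227479, minus strand): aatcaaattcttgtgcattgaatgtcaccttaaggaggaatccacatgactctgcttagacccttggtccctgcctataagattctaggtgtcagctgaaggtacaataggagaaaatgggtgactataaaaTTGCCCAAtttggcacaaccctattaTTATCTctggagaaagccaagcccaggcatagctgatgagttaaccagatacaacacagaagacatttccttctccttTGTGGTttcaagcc
Hk3 (chr13:55021386-55021635, minus strand): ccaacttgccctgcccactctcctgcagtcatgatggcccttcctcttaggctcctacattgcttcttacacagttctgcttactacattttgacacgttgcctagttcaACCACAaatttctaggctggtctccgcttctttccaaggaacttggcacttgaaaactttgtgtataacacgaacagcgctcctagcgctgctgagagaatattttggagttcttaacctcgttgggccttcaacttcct
Mgst1 (chr6:138140277-138140526, plus strand): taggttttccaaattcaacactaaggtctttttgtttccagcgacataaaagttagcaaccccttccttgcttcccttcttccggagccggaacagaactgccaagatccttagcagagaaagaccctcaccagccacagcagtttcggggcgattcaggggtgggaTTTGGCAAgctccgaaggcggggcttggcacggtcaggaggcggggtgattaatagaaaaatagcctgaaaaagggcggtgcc
The Tph1 window, the first of 2 in the table, holds a RUNX match 10 bases before the start. Fcer1a, the alpha chain of the high-affinity IgE receptor, had log2 intensities of 16.08, 15.47 and 15.56 in LeuA, against 8.11, 8.57 and 8.43 in WT, and its window holds a match to each motif, the RUNX one 14 bases before the start. The Hk3 window has a RUNX match 140 bases before the start, and the first of 2 Mgst1 windows a C/EBP match 83 bases before it. A match describes the letters and is not evidence of binding.

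Such matches occurred in a minority of promoters in each class of genes. A RUNX match was found in 14% of all 32851 promoters of the table, in 11.9% of those of genes on the array, in 10.3% of those of genes at least 2-fold higher in LeuA and in 12.4% of those of genes at least 2-fold lower. For the GATA motif the shares were 9.99%, 8.67%, 9.69% and 6.66% in the same order, and for the C/EBP motif 9.56%, 8.94%, 8.48% and 9.07%. Of the other 2 motifs searched, GGAAGT for ETS factors stood at 19.7%, 20.6%, 17.7% and 19.4%, and the E-box CACGTG at 6.02%, 6.85%, 8.05% and 8.75%. No test was made of these shares.

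The metabolic gene lists held 484 measured genes, of which 125 rose and 169 fell (60.7% called, close to the 59.1% of bright genes). Glucose entry and glycolysis leaned towards higher levels in LeuA. Of 32 measured genes, 16 rose and 8 fell (75% called), with a median difference of 0.44. The glucose transporter gene Slc2a1 (GLUT1) had log2 intensities of 11.88, 12.26 and 12.36 in LeuA, against 9.65, 9.67 and 9.55 in WT, and rose by 2.55 (5.84-fold higher, SE 0.12, adjusted p = 9.35e-08). Slc2a3 (GLUT3) rose by 3.06 (8.33-fold higher), with 12.58, 12.09 and 12.63 in LeuA and 9.51, 9.36 and 9.26 in WT. Both transporters were therefore higher in each LeuA array. Hexokinases, which trap glucose in the cell, went both ways: Hk3, the hexokinase of mature myeloid cells, had 7.28, 7.22 and 7.22 in LeuA, against 13.98, 13.47 and 13.53 in WT, and fell by 6.42 (85.6-fold lower, SE 0.12, adjusted p = 3.6e-10). Hkdc1, a hexokinase-like gene usually low in blood cells, had 9.04, 10.95 and 10.93 in LeuA, against 6.01, 6.09 and 6.12 in WT, and rose by 4.24 (18.8-fold higher); the LeuA arrays spread more than the WT arrays. Downstream, the aldolase gene Aldoc rose by 3.20 (9.2-fold higher), and Slc16a3, the lactate exporter MCT4, rose by 2.19 (4.56-fold higher). Lower levels were read for Pfkfb4 (-2.27), which tunes phosphofructokinase through fructose bisphosphate, Pkm (-1.66), the pyruvate kinase gene, and Ldhb (-1.72), a lactate dehydrogenase subunit.

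Citrate cycle genes were called at a share near the 36.8% of all genes but below the 59.1% of bright genes. Bright genes made up 23 of the 24 measured. Of 24 measured genes 3 rose and 6 fell (37.5%), and the largest of these differences was that of Pdha1, the E1 alpha subunit of pyruvate dehydrogenase, which fell by 1.41 (2.65-fold lower). Suclg1 (-0.78) and Mdh1 (-0.46) were lower, and Idh3a (0.58), Dlst (0.44) and Sdhb (0.32) slightly higher. The count of genes that rose was 5 without LeuA 1 and 6 with arrays centred on their medians. NADPH production leaned lower. Of 15 measured genes, 2 rose and 7 fell (60% called), with a median difference of -0.18. Pgd (-1.25) of the pentose phosphate pathway and the isocitrate dehydrogenases Idh1 (-1.58) and Idh2 (-1.20) fell, while Nadk2 (1.58), the mitochondrial NAD kinase, rose. Nnt, the mitochondrial transhydrogenase that makes NADPH, had log2 intensities of 10.18, 10.15 and 10.28 in LeuA, against 12.90, 12.81 and 12.86 in WT, and fell by 2.65 (6.28-fold lower, SE 0.09, adjusted p = 1.06e-08). C57BL/6J mice are known to carry a deletion in Nnt that other C57BL/6 substrains lack; the labels give no substrain, and its part in this difference was not tested. Glycogen and galactose genes also leaned lower. Of 21 measured genes, 3 rose and 10 fell (61.9% called), with a median difference of -0.29. Gbe1 (-3.12), the branching enzyme, and Ppp1r3d (-3.13), a glycogen-targeting phosphatase subunit, led the falls.

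Folate, serine and amino acid enzymes moved in both directions. On the list of serine, glycine, folate and methionine genes 6 of 26 rose and 8 fell (53.8% called), with a median of -0.02. Mthfd1, the trifunctional cytosolic folate enzyme, rose by 2.05 (4.14-fold higher, SE 0.08, adjusted p = 4.65e-08), and Mtap, which salvages methionine, rose by 1.03 (2.05-fold higher). Phgdh, the first enzyme of serine synthesis, had log2 intensities of 11.58, 11.80 and 12.19 in LeuA, against 14.41, 14.18 and 14.21 in WT, and fell by 2.41 (5.32-fold lower). Aldh1l1 (-2.64), which drains formyl folate, and Shmt1 (-1.38) were lower as well. On the list of glutamine, arginine, proline, polyamine and branched-chain enzymes 8 of 39 rose and 14 fell, with a median of -0.15. Asns, which makes asparagine from aspartate and glutamine, had 15.09, 14.95 and 14.76 in LeuA, against 11.87, 11.63 and 11.68 in WT, and rose by 3.20 (9.22-fold higher, SE 0.10, adjusted p = 6.03e-09). Smox (2.21), the spermine oxidase, and Aldh18a1 (1.56), which starts proline synthesis, rose. Gatm, the first enzyme of creatine synthesis, fell by 4.64 (24.9-fold lower), with means of 6.13 ± 0.04 in LeuA and 10.77 ± 0.09 in WT (SD, n = 3 each). Bckdha (-1.99) and Bckdhb (-1.85), both E1 subunits of the branched-chain ketoacid dehydrogenase, fell together.

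Glutathione and peroxide genes had the highest share of calls among metabolic lists, split between isoenzymes. Of 51 measured genes, 21 rose and 20 fell (80.4% called), with a median difference of 0.02. Gstm1, a cytosolic glutathione transferase, had log2 intensities of 6.69, 6.68 and 6.84 in LeuA, against 13.83, 13.28 and 13.32 in WT, and fell by 6.74 (107-fold lower, SE 0.13, adjusted p = 4.16e-10). Mgst1, a microsomal transferase abundant in myeloid cells, had 5.81, 5.81 and 5.74 in LeuA, against 11.81, 11.18 and 11.28 in WT, and fell by 5.63 (49.7-fold lower, SE 0.20, adjusted p = 1.71e-08). Gstm3 (-5.10) and Mgst2 (-5) fell with them, and for these genes WT 1 was the highest WT array. In the same families Gsta3 (2.47) and Mgst3 (2.22) rose, as did Nqo1 (2.89), the quinone reductase induced by oxidative stress, and Prdx3 (2.73), the mitochondrial peroxiredoxin. Gstm genes are close paralogs, so a probe may read more than 1 of them.

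Within the metabolic lists the largest difference was in a sphingolipid enzyme gene, Sphk1. Of 47 measured genes, 9 rose and 21 fell (63.8% called), with a median difference of -0.12. Sphk1, the kinase that makes sphingosine 1-phosphate, had log2 intensities of 15.65, 15.48 and 15.68 in LeuA, against 7.28, 9.05 and 8.86 in WT, and rose by 7.21 (148-fold higher, SE 0.38, adjusted p = 2.79e-07). Sgpl1, the lyase that degrades this lipid, had 6.22, 6.27 and 6.27 in LeuA, against 11.34, 11.17 and 11.18 in WT. It fell by 4.97 (31.4-fold lower, SE 0.10, adjusted p = 4.85e-10). Spns2, an exporter of the same lipid, fell by 4.93 (30.5-fold lower). Sphk1 was thus higher in LeuA and Sgpl1 and Spns2 lower. The other genes that make, degrade or export this lipid were not examined as a set. Cerk, which phosphorylates ceramide, had 6.30, 6.34 and 6.41 in LeuA, against 12.93, 12.97 and 12.99 in WT, and fell by 6.61 (97.8-fold lower), whereas Ugcg (2.44), which glucosylates it, and Sgms1 (1.71), which makes sphingomyelin, rose. On the ganglioside branch St3gal5, the GM3 synthase, had 13.78, 13.87 and 13.75 in LeuA, against 7.48, 8.04 and 8.10 in WT, and rose by 5.92 (60.7-fold higher, SE 0.16, adjusted p = 2.26e-09), while B4galt6 (-4.08), a lactosylceramide synthase, fell.

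Fatty acid and glycerolipid genes changed without a common direction. On the fatty acid oxidation and peroxisome list 12 of 48 rose and 15 fell, with a median of 0.08. Fabp5, a fatty acid binding protein, had log2 intensities of 7.61, 7.90 and 7.62 in LeuA, against 14.29, 14.21 and 14.34 in WT, and fell by 6.57 (94.8-fold lower, SE 0.16, adjusted p = 1.56e-09). The acyl-CoA thioesterase gene Acot1 (-4.55) and the hydratase gene Echs1 (-1.61) fell, and Decr1 (2.35), needed to oxidise unsaturated fatty acids, and Acsl4 (1.19), the arachidonate-preferring synthetase, rose. Among 56 glycerolipid genes 18 rose and 21 fell. The acyltransferases Agpat4 (4.49) and Agpat3 (3.09), the monoglyceride lipase Mgll (3.88) and the phosphatidate phosphatase Lpin1 (2.59) rose, whereas the triglyceride-forming Dgat2 (-2.62) and Mogat2 (-3.81) and the phospholipase Pld1 (-2.33) fell. Of these, Mgll had 10.51, 10.49 and 10.73 in LeuA and 6.79, 6.73 and 6.56 in WT.

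Nucleotide, NAD and retinoid genes made up the remaining metabolic lists. Of 55 purine and pyrimidine genes 10 rose and 21 fell (56.4% called), with a median of -0.13. Adssl1, an adenylosuccinate synthase known from muscle, had log2 intensities of 9.29, 8.88 and 9.45 in LeuA, against 14.62, 14.29 and 14.20 in WT, and fell by 5.17 (35.9-fold lower, SE 0.16, adjusted p = 5.61e-09), while Nt5c3 (1.99), the pyrimidine nucleotidase of red cells, and Tk2 (1.62), the mitochondrial thymidine kinase, rose. For NAD, 10 of 28 genes rose and 6 fell. The entry enzymes Naprt (2.06), from nicotinic acid, and Qprt (2.06), from quinolinic acid, rose together, and Parp8 (-5.38), Sirt5 (-2.72) and Sirt3 (-1.73) fell. Among 42 retinoid and aldehyde genes 7 rose and 12 fell. Rxrg, the retinoid X receptor gamma, had 11.81, 11.64 and 11.76 in LeuA, against 6.64, 6.65 and 6.56 in WT, and rose by 5.12 (34.7-fold higher, SE 0.08, adjusted p = 1.13e-10), and the retinoic acid receptor alpha gene Rara rose by 2.32 (4.98-fold higher). Aldh1b1 (-3.04) and Aldh2 (-1.63) of the mitochondrion fell, and Aldh5a1 (3.12), the succinate semialdehyde dehydrogenase, rose. Other nuclear receptors fell more often than they rose, 13 of 37 against 4 that rose. Nr3c1, the glucocorticoid receptor, fell by 4.45 (21.8-fold lower, SE 0.13, adjusted p = 3.91e-09), and Vdr, the vitamin D receptor, fell by 1.70 (3.26-fold lower), whereas Ppard (1.97) rose.

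**Figure D2:**
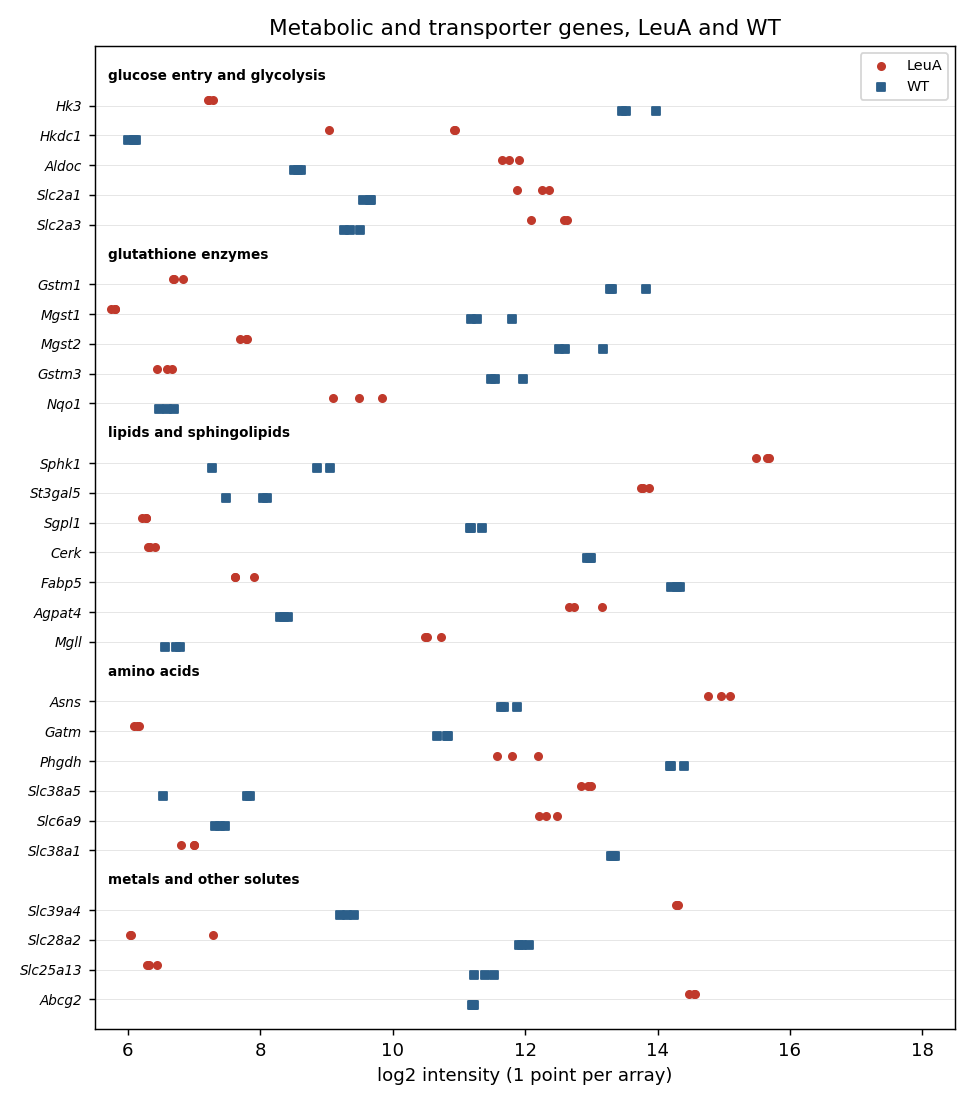
Log2 intensity (horizontal axis) of metabolic and transporter genes in each array, with LeuA arrays as red circles above WT arrays as blue squares. For every gene drawn the 3 LeuA points lie on one side of the 3 WT points; Sphk1, St3gal5, Slc38a5 and Slc6a9 are higher in LeuA and Hk3, Gstm1, Cerk and Slc38a1 are lower.

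The transporter and channel lists held 645 measured genes, of which 120 rose and 112 fell (36.0%, near the 36.8% of all genes). Within them, amino acid carriers were called more often upwards than downwards. Of 45 measured genes, 13 rose and 8 fell (46.7% called), with a median difference of -0.01. Slc38a5, a carrier of glutamine and glycine, had log2 intensities of 12.95, 13 and 12.85 in LeuA, against 6.54, 7.84 and 7.80 in WT, and rose by 5.54 (46.5-fold higher, SE 0.30, adjusted p = 3.06e-07). Slc6a9, the glycine transporter GLYT1 that feeds haem synthesis in erythroid cells, had 12.21, 12.31 and 12.48 in LeuA, against 7.32, 7.46 and 7.38 in WT, and rose by 4.95 (30.8-fold higher, SE 0.12, adjusted p = 1.48e-09). Slc38a1, a related glutamine carrier, had 7, 7 and 6.80 in LeuA, against 13.33, 13.29 and 13.36 in WT, and fell by 6.39 (84.2-fold lower, SE 0.12, adjusted p = 2.44e-10). Within the SLC38 family 1 member was thus high where the other was near the bottom of the scale. Slc43a1 (2.06), a leucine carrier, and Slc15a2 (1.66), a peptide carrier, rose. Erythroid marker sums were higher in the same arrays, and their part in the rise of Slc6a9 was not tested. Over the whole solute carrier superfamily 71 of 353 genes rose and 66 fell.

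Mitochondrial and metal carriers included members of the haem pathway. On the mitochondrial list 12 of 50 rose and 12 fell. Slc25a37 (1.54), the iron importer mitoferrin, and Slc25a38 (1.42), which brings glycine in for haem, rose, as did Slc25a21 (3.71). Slc25a13, the aspartate-glutamate carrier citrin, had log2 intensities of 6.32, 6.29 and 6.44 in LeuA, against 11.53, 11.23 and 11.40 in WT, and fell by 5.04 (32.9-fold lower, SE 0.09, adjusted p = 1.99e-10). Slc25a4 (-3.76), the ATP-ADP exchanger ANT1, and Slc25a24 (-3.40) fell. Zinc, copper, iron and manganese genes were split evenly, 13 up and 13 down of 48. Slc39a4, a zinc importer better known from the intestine, had 14.30, 14.31 and 14.28 in LeuA, against 9.21, 9.42 and 9.31 in WT, and rose by 4.98 (31.6-fold higher, SE 0.09, adjusted p = 3.09e-10). Slc39a8 (2.91), a zinc and manganese importer, rose, while Slc39a6 (-2.08), Slc30a4 (-2.20) and the copper transporter Slc31a2 (-3.05) fell. Among magnesium-linked genes, Cnnm1 (5.12) and Slc41a3 (4.41) rose.

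Carriers of other solutes, pumps and channels included single members with large differences. Of 53 sugar, lactate, nucleoside and vitamin carriers 16 rose and 11 fell (50.9%). Slc28a2, a sodium-coupled nucleoside carrier, had log2 intensities of 6.03, 7.29 and 6.04 in LeuA, against 11.92, 11.95 and 12.06 in WT, and fell by 5.52 (45.9-fold lower, SE 0.30, adjusted p = 3.25e-07). Slc52a3 (2.49), a riboflavin carrier, rose, and Slc46a1 (-1.58), a folate carrier, and Slc5a11 (-2.01), an inositol carrier, fell. The organic anion carrier Slco4a1 (-5.75) fell as well. ABC transporters had 10 genes up and 13 down of 48, with 8 falls when only genes above the median level were tested. Abcg2, an exporter of drugs and porphyrins, had 14.47, 14.57 and 14.55 in LeuA, against 11.23, 11.21 and 11.20 in WT, and rose by 3.32 (9.97-fold higher, SE 0.06, adjusted p = 2.67e-10). Abcb4 (4.15), a phosphatidylcholine translocase, and Abcb10 (2.66), a mitochondrial transporter of erythroid cells, rose. Abcd3 (-3.57) of the peroxisome, Abca3 (-3.44) and the drug exporter Abcb1b (-2.55) fell.

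Among 88 potassium channel genes 8 rose and 8 fell (18.2%, against 36.8% of all genes). Bright genes made up 24 of the 88, and 2 falls were called when only genes above the median level were tested. Kcnj5, an inward rectifier gated by G proteins, had log2 intensities of 12.69, 12.87 and 13.16 in LeuA, against 7.73, 7.27 and 7.43 in WT, and rose by 5.43 (43.1-fold higher, SE 0.14, adjusted p = 1.94e-09). Kcne3 (3.38) and Kcnc4 (2.86) rose, and Kcnip3 (-4.69) and Kcnk12 (-4.33) fell. Of 102 calcium, chloride, sodium and ATP-gated channel genes 19 rose and 13 fell (31.4%). Hvcn1, the proton channel that sustains the oxidative burst of phagocytes, had 6.5, 6.73 and 6.68 in LeuA, against 12.58, 12.33 and 12.39 in WT, and fell by 5.80 (55.8-fold lower, SE 0.13, adjusted p = 6.79e-10). The ATP-gated channels P2rx7 (2.67) and P2rx4 (2.29) rose together, and Lrrc8d (-3.68), a subunit of the volume-regulated anion channel, fell. On the list of pumps, exchangers and aquaporins 11 of 77 rose and 18 fell (37.7%). The sodium pump subunits moved in opposite directions, with Atp1b2 (4.44) higher and Atp1b1 (-1.80) lower. The water channels Aqp9 (2.85), Aqp11 (2.73) and Aqp8 (2.12) rose, and Aqp1 (-2.77) fell. Slc12a2 (-2.10), the sodium-potassium-chloride cotransporter, fell.

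**Figure D3:**
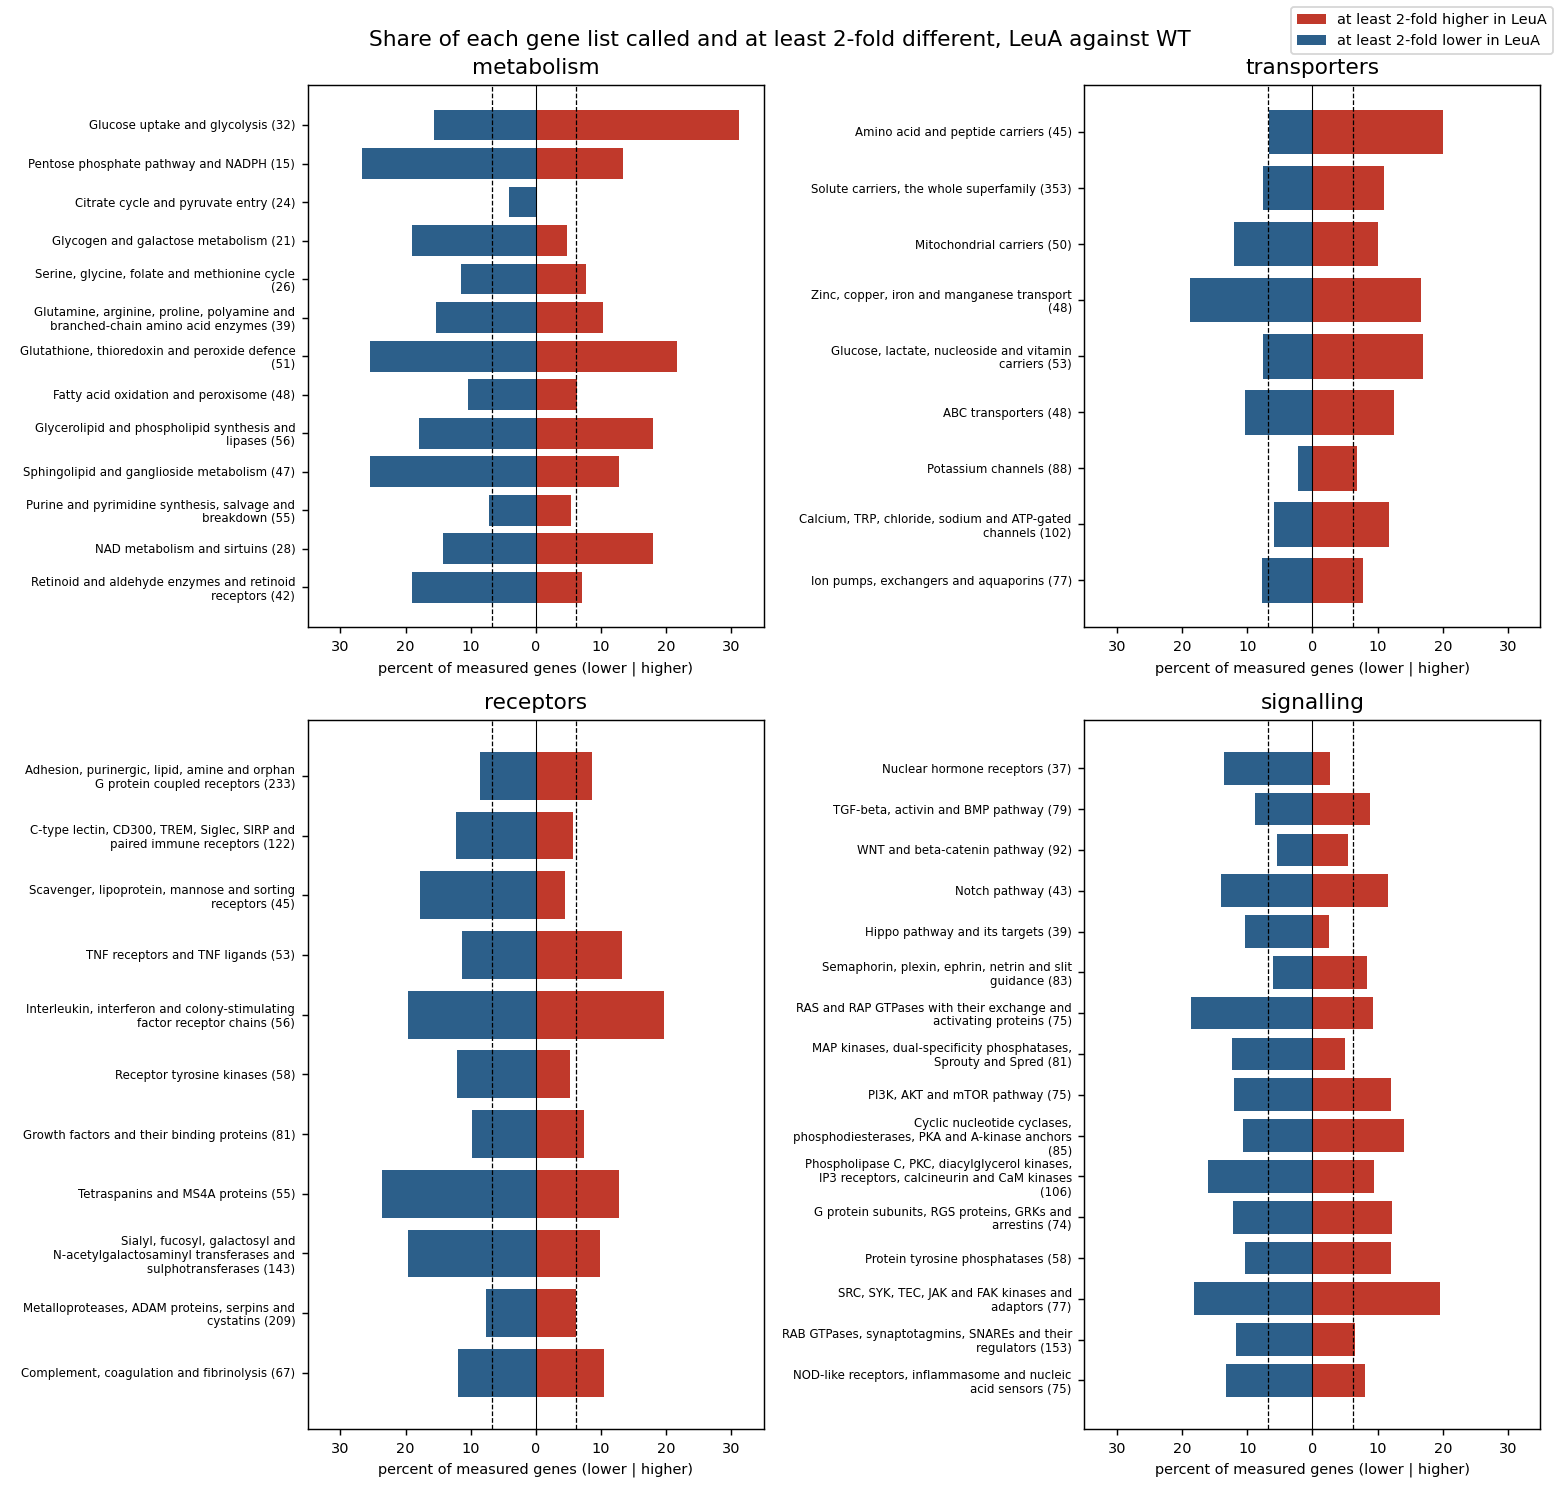
Percent of the measured genes of each list (number in brackets) that were called and at least 2-fold higher (red, right) or lower (blue, left) in LeuA against WT, n = 3 arrays per group. Dashed lines mark the share over all 21872 genes, 6.2% higher and 6.78% lower. Glycolysis reached 31.2% higher, amino acid carriers 20% higher, and tetraspanins with MS4A proteins 23.6% lower.

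The receptor and surface lists held 1111 measured genes, of which 175 rose and 257 fell (38.9%, near the 36.8% of all genes). Cytokine receptors were changed most often among them. Of 56 measured genes, 15 rose and 21 fell (64.3% called), with a median difference of -0.06. Epor, the erythropoietin receptor, had log2 intensities of 13.71, 13.61 and 13.63 in LeuA, against 7.92, 8.85 and 8.68 in WT, and rose by 5.17 (36.0-fold higher, SE 0.21, adjusted p = 3.97e-08). Csf2rb, the beta chain shared by the IL-3, GM-CSF and IL-5 receptors, had 15.19, 15.25 and 15.74 in LeuA, against 12.82, 12.61 and 12.76 in WT, and rose by 2.66 (6.34-fold higher), and Csf2rb2, the mouse beta chain specific to IL-3, rose by 4.37 (20.6-fold higher, SE 0.13, adjusted p = 5.73e-09). These beta chains are close paralogs, so their probes may share signal. The alpha chain for the same ligand moved the opposite way: Il3ra had 8.56, 8.75 and 8.84 in LeuA, against 12.69, 12.97 and 12.89 in WT, and fell by 4.13 (17.5-fold lower, SE 0.25, adjusted p = 8.46e-07). Il6ra, the IL-6 receptor, had 6.37, 6.58 and 6.70 in LeuA, against 12.85, 12.63 and 12.62 in WT, and fell by 6.15 (71.1-fold lower, SE 0.19, adjusted p = 7.1e-09). Ifngr1, the ligand-binding chain for interferon gamma, fell by 5.5 (45.3-fold lower), and Il21r (-3.57) fell, while the interferon lambda receptor Ifnlr1 (3.07) rose. Erythroid marker sums were higher in the same LeuA arrays as Epor, and their part was not tested.

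Receptors of the TNF family fell at their main inflammatory members. Of 53 measured genes, 15 rose and 17 fell (60.4% called), with a median difference of -0.02. Tnfrsf1a, the principal TNF receptor, had log2 intensities of 6.05, 6.20 and 6.27 in LeuA, against 13.22, 13.17 and 13.15 in WT, and fell by 7 (128-fold lower, SE 0.09, adjusted p = 5.41e-11). Ltbr, the lymphotoxin beta receptor, had 6.14, 6.22 and 6.36 in LeuA, against 11.95, 11.94 and 11.77 in WT, and fell by 5.65 (50.2-fold lower, SE 0.14, adjusted p = 1.19e-09). Tnfrsf1b (-3.03), the other TNF receptor, and Cd27 (-3.40) fell too. Rises were smaller: the GITR gene Tnfrsf18 (3.50), Tnfrsf25 (2.06) and the adaptors Traf4 (1.81) and Traf1 (1.79). Among paired immune receptors 15 of 122 rose and 28 fell (35.2% called, near the 36.8% of all genes), with a median difference of -0.03. Sirpa, the receptor for CD47 on myeloid cells, had 6.30, 6.31 and 6.22 in LeuA, against 11.61, 11.59 and 11.59 in WT, and fell by 5.32 (40-fold lower, SE 0.12, adjusted p = 1e-09). Tyrobp (DAP12), the activating adaptor of TREM receptors, fell by 5.04 (33.0-fold lower), alongside Trem3 (-5.11) and the fungal receptor Clec7a (-2.94). The CD200 receptor genes Cd200r3 (5.53), Cd200r4 (4.12) and Cd200r2 (2.51) rose. Mast cell and basophil marker sums were higher in the same arrays, although only 6 of those 12 markers rose and 3 fell. The part of such cells in these rises was not tested. Of 45 scavenger and sorting receptors 9 rose (5 without WT 2 or WT 3) and 15 fell, among them Sorl1 (-4.51), Scarb2 (-3.43), Olr1 (-2.40) and Cd68 (-2.23).

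G protein coupled receptors were called in 29.6% of 233 genes, 26 up and 43 down, against 36.8% of all genes. Bright genes made up 72 of the 233, and 26 falls were called when only genes above the median level were tested. Ptgir, the prostacyclin receptor, had log2 intensities of 13.39, 13.48 and 13.42 in LeuA, against 7.98, 8.04 and 7.92 in WT, and rose by 5.45 (43.7-fold higher, SE 0.07, adjusted p = 5.66e-11). F2r, the thrombin receptor PAR1, had 13.98, 13.79 and 13.90 in LeuA, against 8.61, 8.63 and 8.60 in WT, and rose by 5.28 (38.8-fold higher, SE 0.07, adjusted p = 4.98e-11). Both are receptors best known from platelets and vessels. The megakaryocyte marker sums overlapped between LeuA and WT, but 2 of those 10 markers rose and 6 fell, so the sums hide opposite changes. The part of megakaryocyte-like cells in these rises was not tested. C5ar2 (4.71), the second C5a receptor, rose. Adora3, the adenosine A3 receptor, rose by 5.93 (60.9-fold higher) by its brightest probe, but its other probe gave 0.16 (adjusted p = 0.0972). Gpr65, a proton-sensing receptor, had 6.21, 6.14 and 6.11 in LeuA, against 11.27, 11.04 and 11.04 in WT, and fell by 4.96 (31.2-fold lower, SE 0.08, adjusted p = 1.17e-10). Gpr160 (-5.24), Ffar2 (-4.36), the short-chain fatty acid receptor, and Smo (-4.70), the signal transducer of the Hedgehog pathway, fell.

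Receptor tyrosine kinases were called at the rate of all genes, 10 up and 11 down of 58 (36.2%, against 36.8% of all genes). Bright genes made up 22 of the 58. Fgfr1, a fibroblast growth factor receptor, had log2 intensities of 11.98, 12.43 and 12.24 in LeuA, against 6.91, 7.01 and 6.93 in WT, and rose by 5.27 (38.5-fold higher, SE 0.10, adjusted p = 3.85e-10). Epha2 (2.64) and Tek (1.25), the angiopoietin receptor, rose. Csf1r (-2.74), the macrophage colony-stimulating factor receptor, and Pdgfrb (-3.27) fell, and Flt3 fell by 3.16 (8.94-fold lower) by its brightest probe, with its other probe at -0.10 (adjusted p = 0.581). Growth factor genes gave 18 rises and 16 falls of 81. Angpt1, the activating ligand of Tek, had 6.46, 6.22 and 6.20 in LeuA, against 11.13, 11.60 and 11.67 in WT, and fell by 5.17 (36.1-fold lower, SE 0.21, adjusted p = 4.8e-08), so ligand and receptor moved in opposite directions. Artn (4.76), a ligand of the GDNF family, Pdgfb (4.08) and Flt3l (2.98), the ligand of Flt3, rose, and Igfbp4 (-4.08) and Nrg2 (-2.79) fell.

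Genes of tetraspanins and MS4A proteins fell more often than they rose, 17 of 55 against 9 that rose. Ms4a3, a gene of granulocyte-monocyte progenitors, fell by 6.79 (111-fold lower, SE 0.12, adjusted p = 1.79e-10), and Tspan3 (-6.05), Ms4a6c (-5.06) and Cd63 (-5.06), a granule membrane tetraspanin, fell with it. Cd63 was uneven in LeuA, with log2 intensities of 11.81, 9.15 and 9.33 in LeuA, against 15.20, 15.15 and 15.14 in WT. Ms4a2 (4.67), the beta chain of the IgE receptor, Tspan33 (4.29) and Tspan8 (4.14) rose. Surface glycan genes, a list of transferases that also holds core protein genes, followed a like pattern. Of 143 measured, 25 rose and 41 fell (46.2% called, against 36.8% of all genes). Gpc1, the core protein of glypican, had 6.78, 6.44 and 6.60 in LeuA, against 13.88, 13.50 and 13.26 in WT, and fell by 6.94 (123-fold lower, SE 0.21, adjusted p = 6.14e-09). Fut7 (-3.81), the fucosyltransferase that completes selectin ligands on leukocytes, and B4galt4 (-4.46) fell, and the sialyltransferase St3gal6 (4.47) and the sulphotransferases Ndst2 (3.93) and Chst10 (3.39) rose.

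Protease genes were called less often than the 36.8% of all genes, and complement genes at a share near it. Bright genes, among which calls were commoner, made up 71 of the 209 protease genes and 26 of the 67 complement genes. Of 209 metalloproteases, ADAM proteins, serpins and cystatins 26 rose and 33 fell (28.2%). Kel, the Kell blood group endopeptidase, had log2 intensities of 13.15, 13.09 and 13.02 in LeuA, against 6.72, 7.57 and 7.33 in WT, and rose by 5.88 (58.9-fold higher, SE 0.18, adjusted p = 5.91e-09), next to higher erythroid marker sums. Mmp14 (3.49) and Serpinb6b (3.33) rose, and Serpinf1 (-5.40) and Bace1 (-4.77) fell. Among 67 complement and coagulation genes 9 rose and 18 fell (40.3%), with 11 falls when only genes above the median level were tested. Membrane shields against complement rose. Cd59a, which blocks the membrane attack complex, had 13.81, 13.93 and 13.91 in LeuA, against 7.79, 7.98 and 7.80 in WT, and rose by 6.03 (65.2-fold higher, SE 0.08, adjusted p = 5.06e-11). Cd55, which speeds the decay of C3 convertases, had 12.84, 12.99 and 12.95 in LeuA, against 6.82, 7.64 and 7.5 in WT, and rose by 5.61 (48.7-fold higher, SE 0.18, adjusted p = 8.5e-09), and its paralog Cd55b rose by 4.36 (20.5-fold higher). Among plasma components, falls were read for the properdin gene Cfp (-3.83), C1ra (-2.57) and Tfpi (-2.96), the tissue factor pathway inhibitor.

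**Figure D4:**
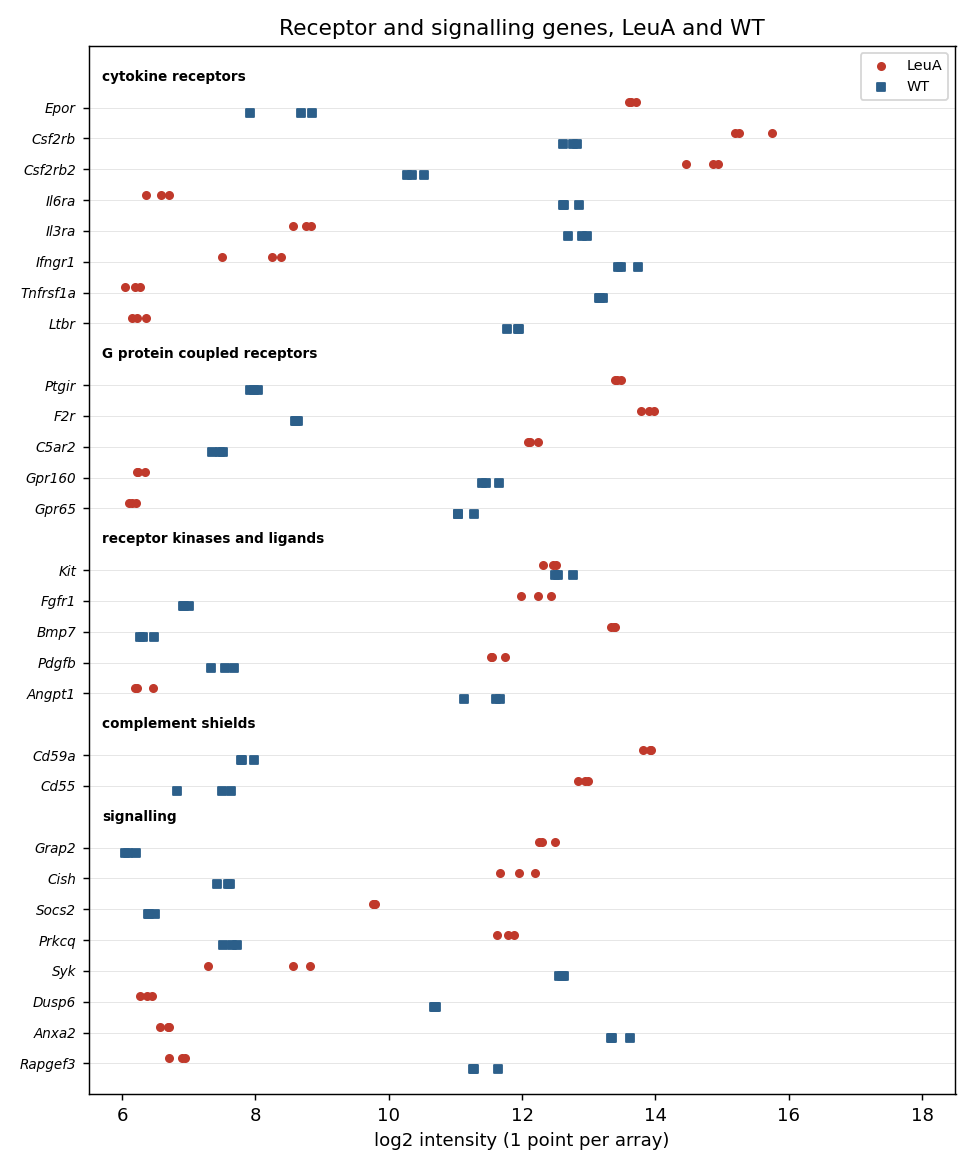
Log2 intensity (horizontal axis) of receptor and signalling genes in each array, with LeuA arrays as red circles above WT arrays as blue squares. Kit overlaps between the groups at about 12.5, whereas Epor, Csf2rb, Ptgir, Cd59a and Grap2 are higher and Il6ra, Tnfrsf1a, Gpr65, Syk and Anxa2 lower in each LeuA array.

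Signalling lists held 1368 measured genes, of which 342 rose and 347 fell (50.4%). Over all genes 36.8% were called, 17.9% higher and 18.9% lower. Kinases and adaptors that work next to receptors were called in 67.5% of 77 genes, 28 up and 24 down. Grap2, an adaptor known from T cells, had log2 intensities of 12.29, 12.49 and 12.25 in LeuA, against 6.05, 6.22 and 6.10 in WT, and rose by 6.22 (74.8-fold higher, SE 0.08, adjusted p = 6.54e-11), while T cell markers gave 0 calls. Its relative Grap (3.45) rose as well. Cish and Socs2, feedback inhibitors induced by STAT5 below erythropoietin and IL-3 receptors, both rose: Cish had 11.67, 12.19 and 11.95 in LeuA, against 7.42, 7.62 and 7.59 in WT, and rose by 4.39 (21.0-fold higher, SE 0.13, adjusted p = 4.87e-09), and Socs2 rose by 3.35 (10.2-fold higher). Syk, the kinase below Fc and ITAM receptors, had 7.29, 8.57 and 8.83 in LeuA, against 12.60, 12.56 and 12.63 in WT, and fell by 4.37 (20.6-fold lower, SE 0.33, adjusted p = 4.16e-06), with LeuA 1 apart from LeuA 2 and LeuA 3. Stat4 (-4.21), Dok3 (-3.12) and Sh2b2 (-4.67) fell.

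More MAP kinase and RAS genes fell than rose. Of 81 MAP kinase and dual-specificity phosphatase genes 16 rose and 24 fell (49.4% called), with a median difference of -0.08. Dusp6, a phosphatase of ERK that ERK itself induces, had log2 intensities of 6.45, 6.27 and 6.37 in LeuA, against 10.70, 10.71 and 10.68 in WT, and fell by 4.33 (20.1-fold lower, SE 0.23, adjusted p = 3.01e-07). Map3k1 (-4.42), Map3k14 (-2.50) and Mapkapk2 (-2.38) fell, and Dusp3 (3.62) and Map2k4 (1.44) rose. Of 75 RAS and RAP genes 18 rose and 24 fell. Rapgef3, the RAP exchange factor that cyclic AMP activates, fell by 4.54 (23.3-fold lower, SE 0.16, adjusted p = 1.48e-08). Rasa3 (-3.98), a GTPase-activating protein that turns RAP and RAS off, and Rassf2 (-5.02) fell as well, whereas Rap1gap (3.02) and Rgl1 (3.54) rose. PI3K pathway genes were balanced, 22 up and 23 down of 75 (60.0% called). Inpp4b (3.75), a phosphoinositide phosphatase, Irs2 (2.55), the insulin receptor substrate, and Trib3 (2.37) rose, and Inpp5a (-2.38), Gab3 (-2.14) and Pik3r5 (-1.94) fell. Protein tyrosine phosphatases gave 20 rises and 16 falls of 58. Cdc25b, which activates cyclin-dependent kinases, rose by 4.66 (25.2-fold higher, SE 0.08, adjusted p = 2.29e-10), Ptprf (3.25) rose, and Ptpn22 (-3.99) and Ptprc (-2.53), or CD45, fell.

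Cyclic AMP and G protein genes included more rises than falls. Of 85 cyclic nucleotide genes 24 rose and 17 fell (48.2% called), with a median difference of 0.03. Akap2, an anchor for protein kinase A, had log2 intensities of 12.43, 11.51 and 12.36 in LeuA, against 6.51, 7.32 and 6.31 in WT, and rose by 5.39 (41.8-fold higher, SE 0.29, adjusted p = 3.38e-07). Adcy6 (4.05), an adenylyl cyclase, and Pde6h (4.60), a phosphodiesterase subunit of cone cells, rose, and Akap11 (-3.64) and Pde2a (-3.19) fell. Among G protein genes 21 of 74 rose and 16 fell. Gnb4 (4.60), Gna14 (4.05) and Rgs1 (3.12) rose. Gng12, a gamma subunit, had 6.46, 6.51 and 6.20 in LeuA, against 12.65, 12.50 and 12.56 in WT, and fell by 6.18 (72.5-fold lower, SE 0.09, adjusted p = 1.13e-10), and the receptor kinase Grk3 (-4.24) fell while Grk5 (2.66) rose.

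Among calcium-linked genes the falls included annexins and S100 genes, and the rises included kinases. Of 106 measured genes, 29 rose and 32 fell (57.5% called), with a median difference of 0.01. Anxa2, a membrane-binding annexin, had log2 intensities of 6.70, 6.57 and 6.68 in LeuA, against 13.62, 13.35 and 13.33 in WT, and fell by 6.78 (110-fold lower, SE 0.37, adjusted p = 3.25e-07). Anxa1 (-6.31), the annexin linked to glucocorticoid action, Anxa3 (-5.80) and S100a11 (-6.20) fell by similar amounts. Prkcq, the protein kinase C theta of T cells, had 11.89, 11.63 and 11.80 in LeuA, against 7.73, 7.51 and 7.64 in WT, and rose by 4.14 (17.7-fold higher, SE 0.10, adjusted p = 1.3e-09), and Prkd1 (3.78) rose. Nfatc2 rose by 3.70 (13-fold higher) by its brightest probe, with the other at 0.79 (adjusted p = 0.148). Membrane traffic genes gave 35 rises and 36 falls of 153 (46.4% called). Rab32 (-6.12) and Rab38 (-3.81), which serve lysosome-related organelles, fell, as did Rab7b (-4.28) and Myo5a (-3.92), whereas Rab27b (4.31), which tethers secretory granules, and Unc13b (3.52), a vesicle priming factor, rose.

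Developmental pathway lists held a few large differences. Most of their shares of called genes lay near the 36.8% of all genes. On the TGF-beta and BMP list 16 of 79 rose and 14 fell (38.0% called). Bmp7, a bone morphogenetic protein, had log2 intensities of 13.33, 13.39 and 13.37 in LeuA, against 6.48, 6.27 and 6.32 in WT, and rose by 7.01 (129-fold higher, SE 0.12, adjusted p = 1.76e-10). The ligands Gdf3 (3.99) and Bmp4 (2.81) and the inhibitor Id2 (2.84) rose, and Tgfbi (-4.41) and Ltbp3 (-3.19) fell. WNT genes had 16 rises and 19 falls of 92 (38.0% called), with 9 falls when only genes above the median level were tested. Wls, which escorts WNT ligands to the surface, fell by 4.69 (25.8-fold lower, SE 0.08, adjusted p = 2.13e-10). In the Notch pathway 12 of 43 rose and 14 fell (60.5% called). The target Hes1 (2.87), the glycosyltransferase Lfng (1.99) and Psen2 (2.15) rose, and Dtx4 (-4.63) and Maml3 (-3.22) fell. Hippo genes gave 8 rises, 5 without LeuA 2, LeuA 3 or WT 3, and 5 falls of 39 (33.3% called). Amot (-4.37) and Wwc2 (-4.45) were lower. Guidance genes gave 20 rises and 11 falls of 83 (37.3% called), with 6 falls when only genes above the median level were tested. Plxnd1 (-5.01) and Plxnb2 (-3.32) fell and Sema4a (1.89) and Plxnc1 (1.76) rose. Among 75 innate sensors 11 rose and 17 fell (37.3% called). Casp1, the inflammasome protease, fell by 4.48 (22.3-fold lower, SE 0.11, adjusted p = 1.42e-09), and Nod1 (-4.06) and Ifi203 (-4.69) fell, whereas the RNA sensing genes Ddx58 (2.31), or RIG-I, Dhx58 (1.70) and the adaptor Mavs (3.04) rose together.

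Part of the difference from WT was also a difference from LeuB. LeuA and LeuB arrays correlated at 0.982 to 0.989 across genes. LeuA minus LeuB was called for 2683 genes (12.3%), and of the 2838 genes called and at least 2-fold different between LeuA and WT, 909 were also called between the leukaemias. LeuB 2 and LeuB 3 lay on another slide, which held no other group. The count was 869 with slide as a block, where LeuB 1 alone gave the LeuB level. It was 5498 without LeuB 1, 1380 without LeuB 2, 1503 without LeuB 3, 1727 without LeuA 2 and 1674 without LeuA 3. Among the genes described here, Ldhb, the lactate dehydrogenase subunit that favours pyruvate, had log2 intensities of 10.92, 10.01 and 10.98 in LeuA, against 6.60, 6.22 and 6.75 in LeuB. Ldhb was therefore below WT, at 12.26 to 12.48, in both leukaemias but close to the bottom of the scale in LeuB alone. Fcer1a had 16.08, 15.47 and 15.56 in LeuA, against 12.72, 13.10 and 13.12 in LeuB, both far above the 8.11 to 8.57 of WT. Bmp4 had 10.35, 9.44 and 9.66 in LeuA, against 7.14, 7.07 and 7.39 in LeuB, where LeuB lay near the 6.94 to 7.04 of WT. Angpt1 had 6.46, 6.22 and 6.20 in LeuA, against 8.04, 8.51 and 8.89 in LeuB, and Rasa3 had 8.74, 9.38 and 9.73 in LeuA, against 12.19, 12.10 and 12.01 in LeuB. In Rap1gap, Ptprf and Wtip the LeuB arrays lay below those of WT while LeuA lay above: Rap1gap had 11.18, 11.22 and 11.36 in LeuA, against 6.31, 6.56 and 7.17 in LeuB, with WT at 8.04 to 8.42.

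**Figure D5:**
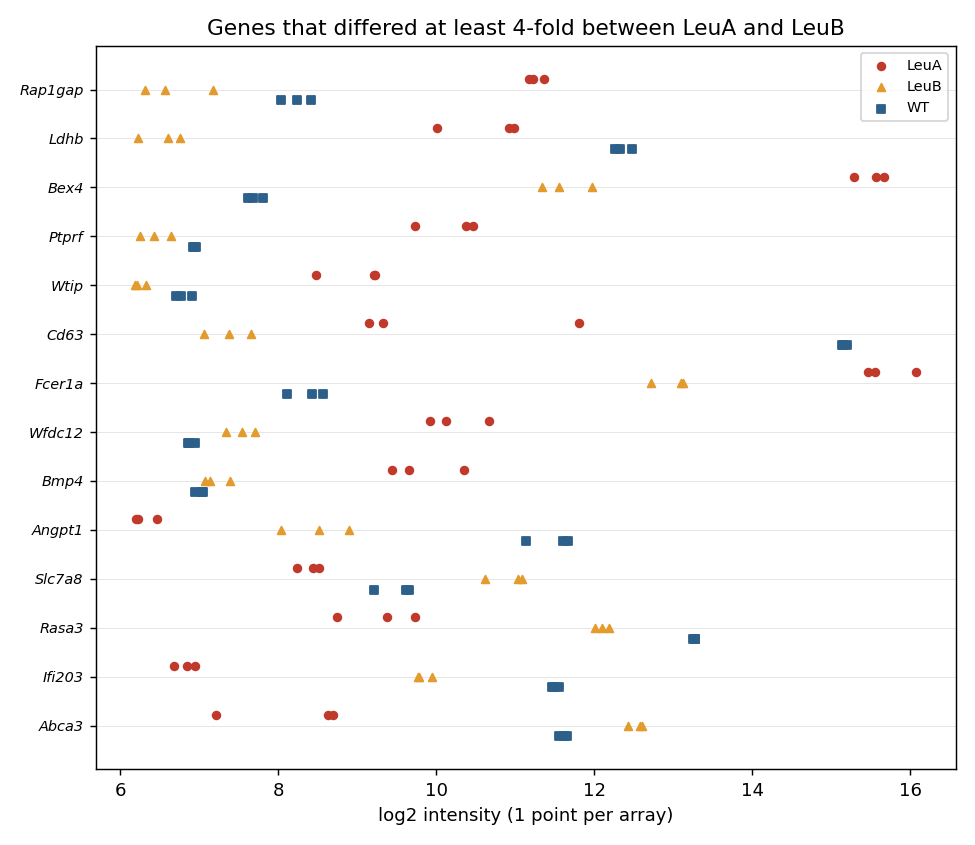
Log2 intensity (horizontal axis) in each array of the 14 named genes called between LeuA and LeuB with at least a 4-fold difference, with LeuA arrays as red circles above LeuB arrays as orange triangles and WT arrays as blue squares. LeuA and LeuB points do not overlap in any of the 14; WT lies between the leukaemias in Rap1gap, Ptprf, Wtip, Abca3 and Slc7a8.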

How the data were processed

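Total RNA of sorted cells was labelled with Cy3 and hybridised to Agilent SurePrint mouse arrays, per the labels' protocols. The deposited values are log2 intensities of 37877 probes between 5.66 and 18.24, normalized by the authors. RMA, affy and limma are named, without versions, per the submitters' processing notes; background correction and detection flags are not given in the sources used here. Values were used as deposited, with no filter on dim probes, and arrays carry no read depth, so their number limits the precision. Of the probes, 24877 had 1 gene symbol in the platform annotation, 0 had several and 13000 had none; 24606 matched RefSeq by gene identifier, which changed 0 symbols. This gave 21872 genes, each represented by its brightest probe on average over the 9 arrays (2637 genes had more than 1 probe). One label field of the LeuB arrays names LeuA, and title and source were followed.

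Group means of LeuA, LeuB and WT were fitted to all 9 arrays with limma 3.58.1 (lmFit, eBayes) in R 4.3.3, with 6 residual and 3 prior degrees of freedom and a median residual SD of 0.112. Tests were two-sided, with Benjamini-Hochberg adjustment over all genes and a threshold of 0.05. The procedure was checked on simulated data. The gene lists, 50 by topic and 9 of markers, and the comparison itself were chosen with earlier results of these data known. The result of 1 topic list is not reported here. For each list up to 4 called genes per direction are named, those with the largest difference among genes whose arrays do not overlap and whose higher mean lies above 7.53; the TET genes, Runx1, Runx1t1, genes of the gate and, per direction, the 20 largest differences over all genes and the 10 largest among genes above 14 were named too, and the text describes part of these. Replicate numbers do not pair the samples: deviations of same-numbered LeuA and WT arrays correlated across genes at 0.024, 0.056 and -0.034. Another fit, normalization, probe rule, filter, slide block and omission of each array were tried.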

Additional observations from a re-analysis of the deposited data

Results flagged for a closer look

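The genes below are described or named for LeuA against WT and also differed between the leukaemias by at least 4-fold, tested as the contrast LeuA minus LeuB in the limma fit with Benjamini-Hochberg adjustment over all genes. There were 14 of them among 145 named genes called in that contrast, of which 75 were still called with slide as a block. LeuA arrays share a slide with LeuB 1, while LeuB 2 and LeuB 3 lay on another slide. With slide as a block, LeuB 1 alone gives the LeuB level of the contrast, because the other slide holds no other group. The log2 differences were therefore those of the first slide alone, so these settings are not separate checks. Of the 14, 13 were still called with slide as a block, on a spread shared by all groups.

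The differences that were positive, higher in LeuA, were led by Rap1gap at 4.57 (adjusted p = 1.86e-06; 4.94 with slide as a block, adjusted p = 2.82e-05), a RAP inactivator, and Ldhb at 4.12 (adjusted p = 1.44e-05), a lactate dehydrogenase subunit. Bex4 gave 3.89, Ptprf, a receptor phosphatase, 3.75, Wtip 2.73 and Wfdc12, a protease inhibitor-like gene, 2.71. Bmp4 gave 2.62, and Fcer1a, the IgE receptor alpha chain, 2.73 (adjusted p = 3.4e-05). Cd63 gave 2.73 (adjusted p = 0.017), with 11.81, 9.15 and 9.33 in LeuA, against 7.06, 7.38 and 7.65 in LeuB, and was the gene not called with slide as a block (3.04, adjusted p = 0.119).

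Lower in LeuA were the lipid transporter gene Abca3 at -4.36 (adjusted p = 6.58e-05), with log2 intensities of 7.21, 8.63 and 8.69 in LeuA, against 12.43, 12.58 and 12.61 in LeuB, so that LeuA 1 was the lowest array. Ifi203, an interferon-inducible DNA sensor family gene, gave -3.02 (adjusted p = 1.24e-07), Rasa3 -2.82, the amino acid carrier gene Slc7a8 -2.52 and Angpt1 -2.19 (-1.74 with slide as a block). Slc7a8 lay at 8.24, 8.51 and 8.44 in LeuA, against 10.62, 11.04 and 11.09 in LeuB and 9.21, 9.62 and 9.65 in WT, so its LeuB level was above that of WT and its LeuA level below. No explanation was tested for any of these differences.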

How the results depend on the processing

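The count of genes called between LeuA and WT (8049) stayed within 1.5 times under all 15 alternatives, at 7073 to 8591. The at least 2-fold count (2838) stayed at 2715 to 2859. Not all alternatives were separate checks. All LeuA and WT arrays share a slide, so the slide block could not change their log2 differences. The first slide alone gave the same counts as the LeuA and WT arrays alone. These settings cannot show a slide effect on this contrast. Leaving out 1 array at a time gave 7073 to 7520, and the share of higher genes was 48.5%, or 56.8% with arrays centred on their medians, which moved the median of all genes to 0.072. With a replicate block the count was 7862; the arrays share only a number, and the block moved neither count past 1.5 times. Of the 446 named genes 0 reversed, and 8 changed sides of the threshold under some alternative: Acot2, Cd22, Chil3, Inpp5j, S100a9, Tpsb2 and Vgll4 lost their call, and Tet3 (0.16) passed at adjusted p = 0.0318 with the slide block and 0.0438 in the fit to the LeuA and WT arrays alone. Of 64 further probes of called named genes, 38 were called in the same direction, 26 were not called and 0 were opposite, so a single probe carries some results. The LeuA against LeuB count (2683) was less stable, by alternatives chosen after seeing the data: 1782 in the fit to those 6 arrays alone, 869 with slide as a block, 581 on the first slide alone, and 1380 to 5498 when 1 array was left out, the highest without LeuB 1. The cause was not tested. Arrays carry no read depth, and differences of probes near the bottom of the scale have no firm size.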
